A study of Mus musculus with 6 samples.

Results

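The developmental pluripotency associated (Dppa) genes Dppa2, Dppa3, Dppa4 and Dppa5a were compared between an induced and an embryonic pluripotent cell line of the mouse. They were found by gene symbol, current or older, among the probes of an Illumina 1-colour bead array. This gave 4 of the 19053 genes named on the array, with 9 of its 45281 probes. The i2PS cells are labelled as BALB/c hepatocytes of the liver that were brought to pluripotency in the living animal. The E14TG2A line, labelled Sv129, consists of embryonic stem cells derived from the inner cell mass of the blastocyst and bought from ATCC. Both lines were grown in DMEM with LIF on fibroblast feeders and were then passaged 3 times on gelatin to clear the feeders. Each line had 3 arrays, which the study calls biological replicates, so that every p-value below measures the spread between cultures of a single line on each side. Strain, tissue of origin and history differ together between the lines and cannot be told apart.

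The Dppa genes share a name for their expression in pluripotent cells and not a common descent of all 4. Dppa2 and Dppa4 are neighbouring genes on chromosome 16 whose proteins carry a SAP domain, a fold that binds DNA. In mouse embryonic stem cells they act together on chromatin, keep promoters of developmental genes open to later activation and help to switch on genes of the 2-cell embryo. Dppa3, also called Stella or PGC7, is a maternal protein of the oocyte and a marker of primordial germ cells. It binds UHRF1, which recruits the maintenance DNA methyltransferase, and it guards maternal DNA in the zygote from loss of methylation. Dppa5a, also called Esg1, is a KH-domain protein that binds RNA and is abundant in embryonic stem cells.

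All 4 genes were detected on all 6 arrays, which means that at least 1 probe of each had a detection p-value under 0.01 against the array's negative controls. Of these 9 probes, 7 were detected on every array and 2 on none. Dppa2 was represented by 2 probes, Dppa3 by 1, Dppa4 by 4 and Dppa5a by 2. After background correction and quantile normalization, Dppa3 was lower in i2PS and Dppa2 was modestly higher, while Dppa4 and Dppa5a did not pass the test. Of the 4 genes, 2 thus passed a limma adjusted p under 0.05, where 43.7% of the 8651 tested genes passed. Dppa3 alone of the 4 passed with a difference of at least 2-fold, as did 7.8% of tested genes, of which the part lower in i2PS made up 4.65%. The 95% confidence intervals of the other 3 lay within 2-fold either way, as for 80.8% of tested genes. The values of the lines did not overlap for Dppa2 and Dppa3, as for 55.8% of tested genes. Among single probes 2 of the 7 passed, where 40.6% of the 12841 tested probes did. Without i2PS replicate 2 the Dppa2 probe ILMN_2607458 did not (adjusted p over probes = 0.0565). In such bulk samples, fewer cells that express a gene and less RNA per cell cannot be told apart.

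**Figure D1:**
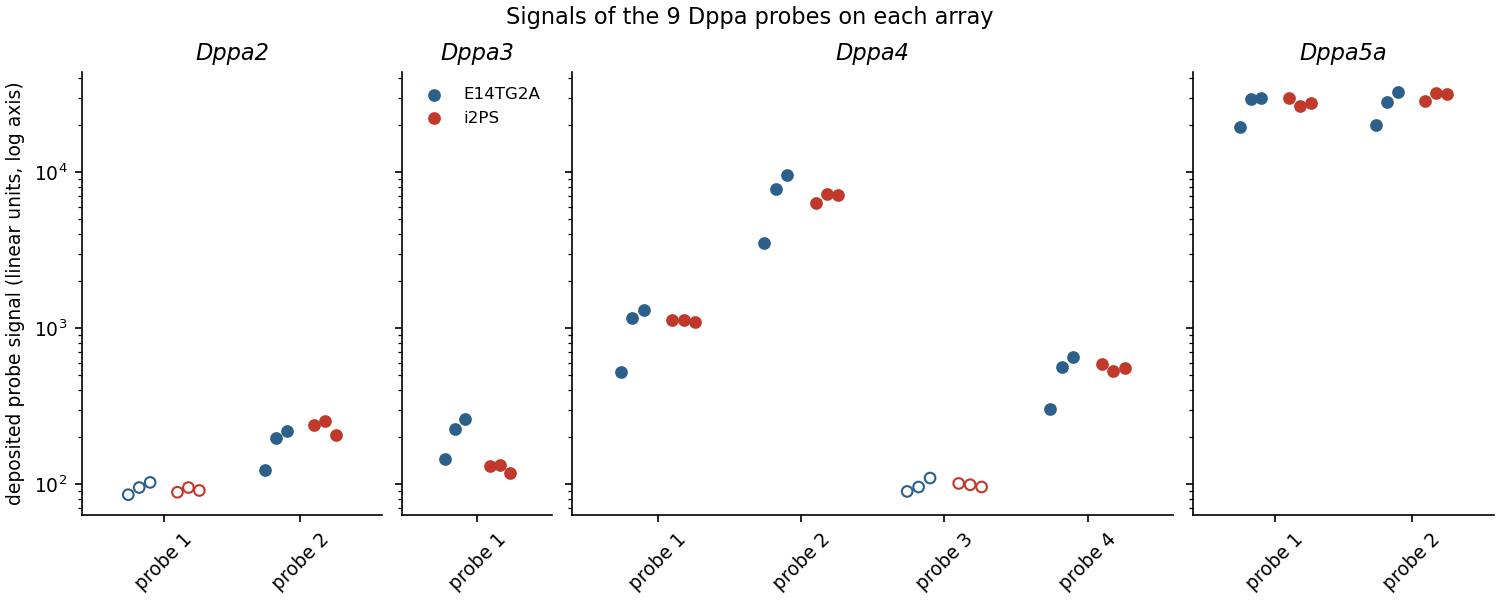
Deposited signal of each Dppa probe (linear units on a log axis) on every array, with E14TG2A in blue and i2PS in red, each in the order of replicates 1 to 3. Filled points are the 7 probes detected on all 6 arrays and open points the 2 probes detected on none. The red Dppa3 points, from 117.9 to 132, all lie below the blue ones, and E14TG2A replicate 1 is low for every filled probe except that of Dppa3, where i2PS is lower still.

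Array brightness differed, and this touches the raw signals above. The mean signal was 228 on E14TG2A replicate 1 against 340.2 to 403 on the other 5 arrays, and 13994 probes were detected there against 14953 to 15922. Normalization brought the arrays to a common scale, on which Pearson's r across genes, which are not independent replicates, was 0.984 to 0.996 within lines and 0.947 to 0.962 between them. All 6 pluripotent cell markers, among them Pou5f1, Sox2 and Nanog, were detected on all arrays. Their summed deposited signals, not normalized, were 6211 to 13129 in E14TG2A, lowest on replicate 1, and 12068 to 13729 in i2PS. Between the lines Pou5f1 differed by 0.10 ± 0.13 (log2, i2PS minus E14TG2A, SE, n = 3 per line; limma adjusted p = 0.54), Sox2 by -0.25 ± 0.12 (adjusted p = 0.113) and Nanog by 0.53 ± 0.22 (adjusted p = 0.0860). Nanog passed under 5 of 18 alternatives, among them without E14TG2A replicate 1 (0.76, adjusted p = 0.0091) and with the mean of its probes (0.47, adjusted p = 0.0290). Without i2PS replicate 1 it was at 0.33 (adjusted p = 0.28). Zfp42 (0.37 ± 0.12) and Tdgf1 (0.47 ± 0.14) passed, but leaving out 1 array ended the call in 4 of 6 cases for Zfp42 (adjusted p from 0.0569 to 0.124) and in 3 for Tdgf1 (0.0705 to 0.0830). Of 10 hepatocyte markers 2 were detected on any array, Ahsg on all 6 and Apoa2 on 1, while Alb and Afp were detected on none. Ahsg, named after its value was seen, was the only 1 tested and differed by -0.20 ± 0.17 (limma adjusted p = 0.36). The summed deposited signals of the 10 hepatocyte markers were 882 to 1018 in E14TG2A and 929 to 992 in i2PS. Of 10 fibroblast markers 5 were detected on any array, with such sums of 935 to 1294 in E14TG2A and 1042 to 1165 in i2PS. For scale, the median signal of a single probe was 88.3 to 103.3 over the arrays. Col1a2, Col3a1, Lum, Postn and Fap were detected on none, while Thy1 was higher in i2PS by 0.84 ± 0.16 and Col5a1 was lower, at -1.01 ± 0.21. The part of these cells in the results was not tested.

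Dppa3 showed the only large difference of the group. Its single probe (ILMN_1225176) had deposited signals of 145, 226 and 259.6 in E14TG2A replicates 1 to 3 and of 130.3, 132 and 117.9 in i2PS. On the normalized log2 scale these were 7.13, 7.13 and 7.09 in E14TG2A and 5.79, 5.69 and 5.36 in i2PS. The E14TG2A values thus lay close together (SD 0.026), while those of i2PS spread more (SD 0.22), with replicate 3 the lowest, and the lines did not overlap. Dppa3 fell by 1.50 ± 0.13 on the log2 scale (SE, n = 3 per line; limma adjusted p = 3.4e-05), a 2.83-fold decrease with a 95% confidence interval from 2.32-fold to 3.46-fold. Of all tested genes, 97.6% had a smaller difference in size and 1.68% were lower still.

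The size of the Dppa3 difference moved with the background correction. Its i2PS signals lay near the median signals of those arrays, which were 95.1 to 98.9. Without background correction and in the authors' own processed values it was -0.78, or 1.71-fold, and with normexp it was -0.96, or 1.95-fold. The authors' values gave nearly the same difference as those without background correction for every member, so that these are not separate alternatives. For Dppa3 the limma adjusted p was at most 0.0057 under all 18 alternatives, and without any 1 array its difference lay between -1.58 and -1.37. Because the array holds 1 probe for Dppa3, no other probe could be set beside it. The related X-linked pseudogene Dppa3-ps has no listed probe, so that a share of its RNA in the signal was not tested.

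Dppa2 moved in the other direction and by less. Its detected probe (ILMN_2607458) had signals of 123, 196 and 219 in E14TG2A and of 240.3, 254 and 207 in i2PS. The normalized log2 values were 6.55, 6.80 and 6.74 in E14TG2A and 7.35, 7.37 and 6.99 in i2PS. All i2PS values lay above all E14TG2A values, though the raw signal of i2PS replicate 3 was below that of E14TG2A replicate 3. Dppa2 was higher by 0.54 ± 0.13 (SE, n = 3 per line; limma adjusted p = 0.0104), or 1.46-fold, with an interval from 1.18-fold to 1.80-fold. A smaller difference was seen in 72.8% of tested genes. The call was lost when arrays were scaled to equal medians instead of by quantiles (0.69, adjusted p = 0.28), a setting in which 634 genes passed instead of 3781. The SE of Dppa2 was 0.36 there, instead of 0.13. Its difference lay 0.50 above the median of all genes, against 0.51 with quantiles. Without background correction the difference was 0.34 and still passed (adjusted p = 0.0089). The other Dppa2 probe (ILMN_1222929) gave signals of 85.5 to 102.6 and was detected on no array, so that the Dppa2 value also rests on 1 probe.

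Dppa4, the partner of Dppa2, was measured by 3 detected probes that did not separate the lines. Its brightest probe (ILMN_2593476) had signals of 3514, 7799 and 9523 in E14TG2A and of 6309, 7219 and 7186 in i2PS, so that the i2PS values lay between the lowest and the highest E14TG2A arrays. On the log2 scale it read 12.54, 12.81 and 12.96 against 12.58, 12.70 and 12.73. Dppa4 differed by -0.10 ± 0.13 (SE, n = 3 per line; limma adjusted p = 0.55), with an interval from -0.39 to 0.19.

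The other detected Dppa4 probes gave small differences of the opposite sign. Probe ILMN_1248480 had signals of 527, 1162 and 1304 in E14TG2A and of 1135, 1127 and 1102 in i2PS, and it differed by 0.10 ± 0.10 (limma adjusted p over 12841 probes = 0.47). Probe ILMN_3155408 had signals of 302, 562 and 657 against 589.6, 529 and 552, and it differed by 0.06 ± 0.11 (adjusted p = 0.71). None of the 3 intervals reached a 2-fold change, and the mean of the 3 probes differed by 0.02 (adjusted p = 0.89). The direction of Dppa4 is therefore unsettled, and it turned as well with equal medians (0.10), where the median of all genes also moved from 0.03 to 0.19 and Dppa4 stayed 0.09 below it. The probe ILMN_3076469, with signals of 89.8 to 109.4, was detected on no array. All 4 Dppa4 probes are listed for the same RefSeq transcript, although Dppa4 has a second annotated one, and the part of the transcript that each probe reads is not given in the sources used here.

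Dppa5a was among the brightest signals on every array. Its probe ILMN_3090545 read 20047, 28128 and 32448 in E14TG2A and 28622, 31989.9 and 31834 in i2PS. Its probe ILMN_3018711 read 19464, 29431 and 29948 against 29967, 26629 and 27611. Both probes ranked between the 3rd and the 31st brightest of the array in every culture, and they reached 69.9% to 98.4% of the highest signal of their array. The lines overlapped with both. Dppa5a differed by 0.12 ± 0.11 (SE, n = 3 per line; limma adjusted p = 0.40) with the brighter probe, with an interval from -0.12 to 0.36, and by 0.05 ± 0.12 with the other (adjusted p over probes = 0.77). With cyclic loess normalization the direction turned, at -0.0040 and -0.11 for the probes. Saturation of the beads at these signals was not tested. The pseudogenes Dppa5b and Dppa5c, which lie near Dppa5a on chromosome 9, have no listed probe, and whether their RNA adds to the signal was not tested. A further gene with the family name, Dppa1, had 1 probe and was detected on no array (signals of 89.8 to 97.4).

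**Figure D2:**
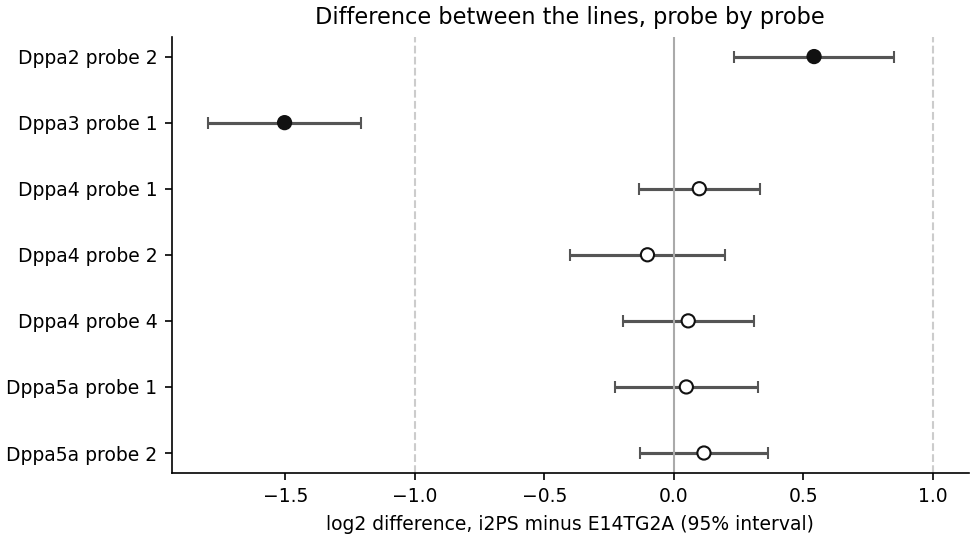
Log2 difference between the lines (i2PS minus E14TG2A, 3 arrays each) with its 95% confidence interval for each of the 7 detected Dppa probes; filled points passed a limma adjusted p under 0.05 over all tested probes, and dashed lines mark 2-fold. The Dppa3 interval lies wholly beyond the 2-fold line, that of Dppa2 lies between 0 and it, and the 5 intervals of Dppa4 and Dppa5a include 0.

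The members were also compared with each other. In each array the log2 value of a member was taken from that of another, and the lines were then compared for all 6 pairs of members. Relative to Dppa4, Dppa2 changed by 0.64 and Dppa3 by -1.40, and relative to Dppa5a they changed by 0.43 and -1.62. Dppa2 and Dppa3 moved apart by 2.05, and Dppa4 and Dppa5a by -0.22. For all 6 pairs the lines did not overlap. Among single tested genes this held for 55.8%, and the share among other pairs of genes was not computed. The pairs are built from the same 4 genes and are not independent. Each exact two-sided permutation p was 0.1, the smallest that 3 arrays against 3 allow. It was again 0.1 after Benjamini-Hochberg adjustment over the pairs. This exact test therefore could not pass a threshold of 0.05 for any pair. Over 15 alternatives the difference between Dppa4 and Dppa5a ranged from -0.28 to -0.06, and its exact p reached 0.7. Those of Dppa3 against Dppa4 and Dppa5a lay between -1.53 and -0.68 and between -1.73 and -0.89. The difference between Dppa2 and Dppa3 lay between 1.11 and 2.09. That between Dppa2 and Dppa5a ranged from 0.22 to 0.57, with an exact p of up to 0.3, and was smallest without background correction and in the authors' processed values. Dppa2 against Dppa4 ranged from 0.44 to 0.79, with an exact p of up to 0.2, reached where an E14TG2A array was left out. Within i2PS, replicate 3 had the lowest value for both Dppa2 and Dppa3, and the gap between these genes varied little among the 3 arrays (SD 0.065).

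**Figure D3:**
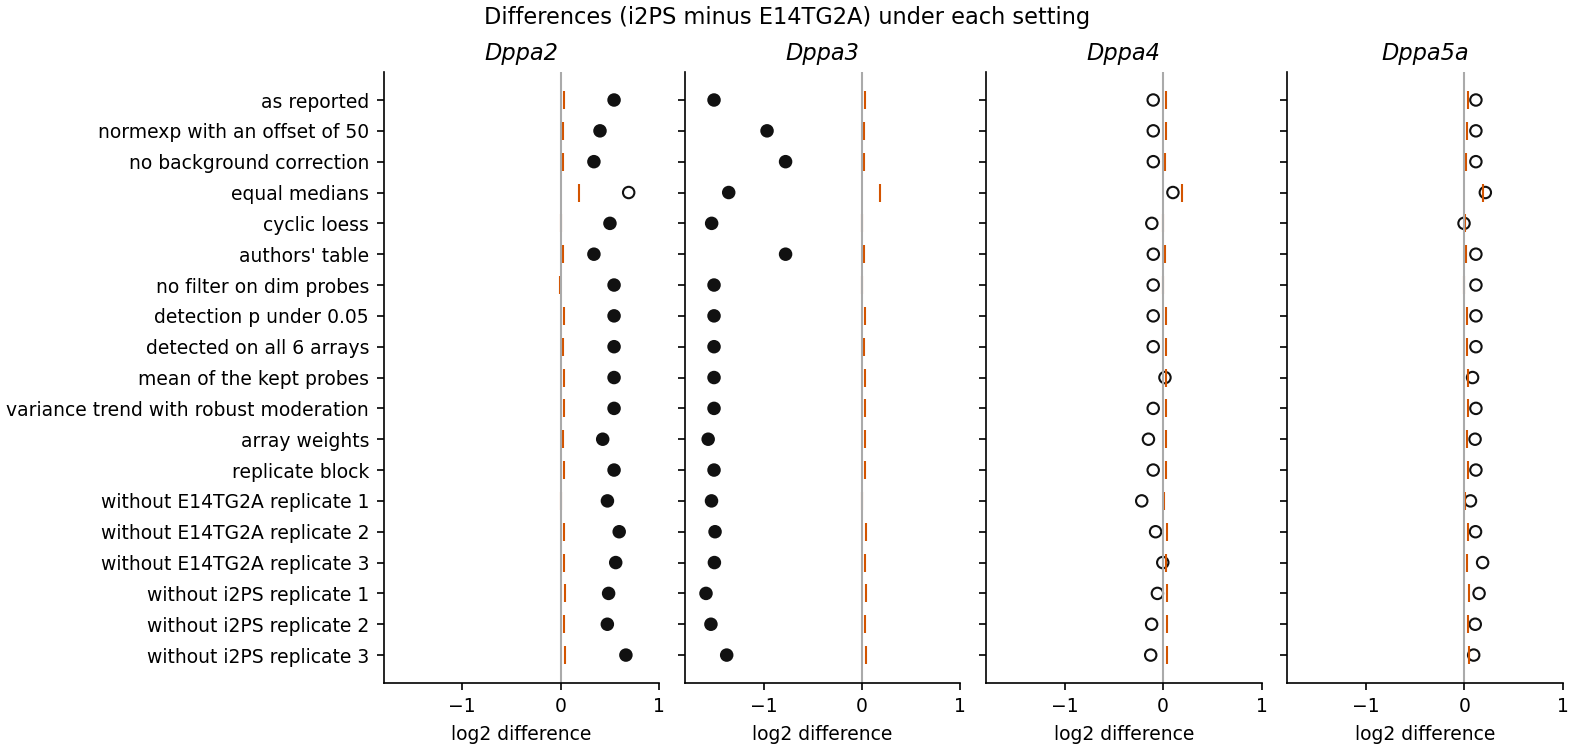
Log2 difference (i2PS minus E14TG2A) of each Dppa gene as reported and under the 18 alternatives, with filled points where the limma adjusted p was under 0.05 and an orange tick at the median of all tested genes. Dppa3 is filled in every row and moves from -1.58 to -0.78, Dppa2 is open with equal medians alone, and Dppa4 and Dppa5a are open throughout.

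Genes beside each locus were then examined. Of the 10 tested genes nearest to Dppa3 on chromosome 6, 5 on either side, 6 were lower in i2PS and 0 were higher by limma, where 20.4% and 23.3% of all tested genes were. At an unadjusted p under 0.05, 2 were higher. The 6 lower genes are Apobec1, a cytidine deaminase (-0.54 ± 0.12, adjusted p = 0.0074), M6pr, a receptor that carries enzymes to the lysosome (-0.53 ± 0.11, adjusted p = 0.0051), Necap1, Slc2a3, Mfap5 and Gdf3. The last 4, named after their values were seen, were between -0.50 and -0.38. The 10 genes had a median of -0.40, against 0.03 over all genes, so that their shift was smaller than the -1.50 of Dppa3, and whether Dppa3 differed from them was not tested. Nanog, the next tested gene on the other side from Gdf3, was at 0.53 and did not pass. With 20 genes on either side, a width chosen after seeing the data, 13 of 40 were lower and 5 higher, with a median of -0.10. Leaving out 1 array gave between 3 (without i2PS replicate 3) and 7 (without E14TG2A replicate 1) lower neighbours, and in the latter case also 3 higher ones. With equal medians 0 were lower. Slc2a3 did not pass without i2PS replicate 1 or 3 (adjusted p of 0.0563 and 0.0727), and for Mfap5 the removal of 1 array ended the call in 4 of 6 cases (0.0666 to 0.0829).

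**Figure D4:**
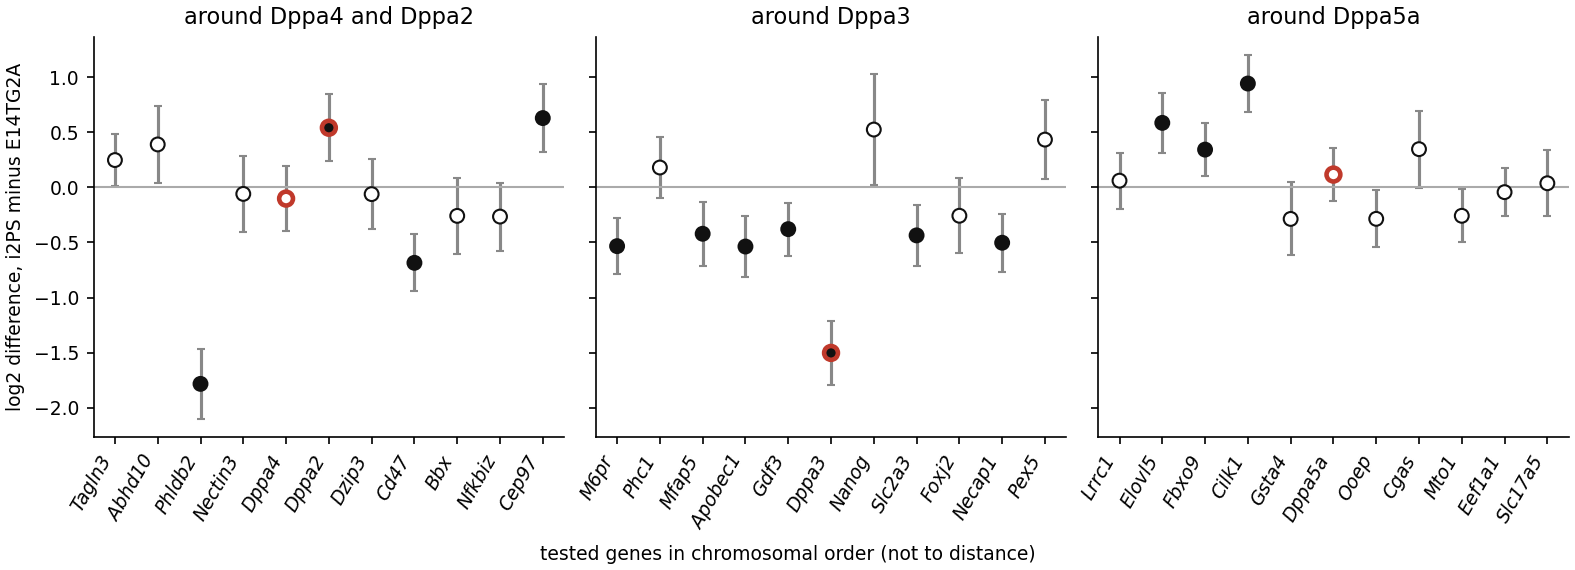
Log2 difference (i2PS minus E14TG2A, with 95% confidence interval) of the tested genes on either side of each Dppa locus, in chromosomal order and not to distance; filled points passed a limma adjusted p under 0.05 over all genes, and red outlines mark the Dppa genes. Dppa3 lies far below its neighbours, of which 6 are also lower, while of Dppa4 and Dppa2, which stand side by side, the point of Dppa2 is filled and that of Dppa4 is open.

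Dppa4 and Dppa2 are next to each other, and the 10 tested genes around Dppa2, Dppa4 included, had a median of -0.08, with 1 higher and 2 lower. Phldb2, which binds phosphoinositides, was not detected on any i2PS array and was thus kept for the test only through E14TG2A. With the background correction used here, Phldb2 was at least 2.14-fold lower (the fitted difference was -0.67 without that correction). Cd47, a surface protein that restrains phagocytosis, was at -0.68 ± 0.11 (limma adjusted p = 0.0014). The higher gene was Cep97, a centrosomal protein named after its value was seen, at 0.63 ± 0.14, but it missed the threshold once i2PS replicate 1 was left out (adjusted p = 0.0502). Around Dppa5a 3 genes were higher and 0 lower by limma, with a median of 0.05, and 2 were lower at an unadjusted p under 0.05. Without E14TG2A replicate 1, 2 were lower by limma. Cilk1, a kinase of the primary cilium, rose by 0.94 ± 0.12, and Elovl5, an enzyme that lengthens fatty acids, rose by 0.59 ± 0.12. Fbxo9, named after its value was seen, was at 0.34 ± 0.11 and lost its call in 4 of 6 cases when 1 array was removed (adjusted p from 0.0711 to 0.0808).

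Genes that share a process, cell type or protein family with the Dppa genes were then counted in lists. Whether their differences depend on a Dppa gene was not tested. With Dppa2 and Dppa4 go the genes of the 2-cell embryo. Of 19 such genes on the array, 15 were detected on no array and 3 could be tested. Zscan4c, of a cluster of near-identical zinc finger genes that a single probe may not tell apart, was higher by 1.28 ± 0.27 (limma adjusted p = 0.0051). It was detected on 2 of 3 E14TG2A arrays and was thus kept for the test only through i2PS. Ddit4l, which restrains mTOR signalling, was lower, at -2.43 ± 0.15 (adjusted p = 6.2e-06), and Tdpoz2, named after its value was seen, did not pass (-0.18 ± 0.13). Of the 3 genes, 1 thus rose and 1 fell, so that 66.7% passed against 43.7% of all genes. With 3 genes, this share is not read as a result.

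With Dppa3 go genes of DNA methylation, in a list that also holds the chromatin genes Ehmt1, Ehmt2, Trim28 and Setdb1. Of 11 tested, 6 were higher, 1 was lower and 4 did not pass, so that 63.6% passed against 43.7% of all genes, and their median was 0.28. Ehmt2, a histone methyltransferase of H3K9, rose by 1.19 ± 0.12 and Tet1, which oxidises methylcytosine, by 1.07 ± 0.11. Dnmt3b (0.84 ± 0.10, limma adjusted p = 2.1e-04) and Setdb1 (0.55 ± 0.11), named after their values were seen, were higher too. Uhrf2, a relative of Uhrf1, was at -0.68 ± 0.12, but the mean of its probes was -0.18 (adjusted p = 0.14). Dnmt1 and Uhrf1, the maintenance enzyme and the partner of Dppa3, were singled out after their values were seen. Dnmt1 was at 0.44 ± 0.11 (adjusted p = 0.0121) and did not pass without i2PS replicate 2 (0.0537). Uhrf1 was at 0.28 ± 0.10 (adjusted p = 0.0465), and leaving out an array ended its call in 5 of 6 cases (adjusted p from 0.0754 to 0.137), the exception being E14TG2A replicate 1. Without each array in turn, 4 to 7 of the list were higher, with 4 at the lowest.

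Primordial germ cell genes, which Dppa3 marks in the embryo, numbered 11 among the tested genes. By limma 5 rose and 0 fell, 0 were lower even at an unadjusted p under 0.05, and the median was 0.33. The share that passed, 45.5%, was close to the 43.7% of all genes. Nanos3, which protects migrating germ cells and is among the 5, was detected on no E14TG2A array. It was thus kept for the test only through i2PS, where it is high. With the background correction used here its i2PS level was at least 1.87-fold higher. Without that correction the fitted difference of Nanos3 was 0.51. Prdm1 (0.33) and Tdrd7 (0.21), named after their values were seen, were detected on 2 of 3 E14TG2A arrays. Both were thus also kept only through i2PS, and neither passed. The median of the list was the value of Prdm1 itself. Ifitm1, a membrane protein of early germ cells, rose by 1.03 ± 0.11. The other genes that rose, named after their values were seen, were Kit (0.72 ± 0.16), Prdm14 (0.63 ± 0.13) and Tfap2c (0.44 ± 0.11). Over 18 alternatives their lowest differences were 0.48, 0.25 and 0.36. Germ line genes with promoters known to be silenced by methylation were tested in 6 cases, of which 3 were higher and 1 lower. The share that passed was 66.7% of these few genes, against 43.7% of all genes. Of the 19 on the array, 10 were detected on no array. Mov10l1 (0.91 ± 0.19) and Piwil2 (0.80 ± 0.14), both of the piRNA pathway, were higher. Their highest deposited signals were only 162 and 212, and their lowest differences over 18 alternatives were 0.38 and 0.43. Tex11, a meiotic gene named after its value was seen, was also higher, by at least 1.19-fold with the background correction used here. Tex11 was likewise detected on no E14TG2A array and was kept for the test only through i2PS. Without background correction Tex11 differed by 0.25, and with equal medians it did not pass (adjusted p = 0.198). Taf7l, a subunit of a germ cell transcription complex, was at -0.83 ± 0.19. The median was 0.56, or 0.30 with Tex11 at its bound.

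Dppa5a has relatives among KH-domain proteins of the oocyte, which form the subcortical maternal complex with other proteins. Of 11 such genes on the array 8 were detected on no array and 3 were tested. By limma 2 were higher and 0 lower, so that 66.7% passed against 43.7% of all genes. With 3 genes, this share is not read as a result. Tle6 rose by 1.54 ± 0.15 (limma adjusted p = 7.6e-05) and Khdc3, also called Filia, by 0.90 ± 0.12 (adjusted p = 4.0e-04). Ooep, the tested gene next to Dppa5a, was at -0.29 ± 0.11 (adjusted p = 0.0707). It passed under 7 of 18 alternatives, among them without E14TG2A replicate 1 (-0.34, adjusted p = 0.0275) and without background correction (-0.28, adjusted p = 0.0235). The lowest and the highest of the 3 genes thus had opposite signs.

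Core and ES-cell-associated genes, the wider set to which the Dppa genes belong, rose in 7 and fell in 2 of 23 cases, or 39.1% against 43.7% of all genes, with a median of 0.17. Eras, a Ras-like protein of embryonic stem cells, rose by 1.02 ± 0.16 and Nr5a2, a nuclear receptor, by 0.92 ± 0.14. Tbx3 was at -0.48 ± 0.14 and Gdf3 at -0.38 ± 0.11. Gdf3 lost its call without E14TG2A replicate 2 (limma adjusted p = 0.0650), and also without i2PS replicate 2 (0.0708) or 3 (0.0547). Tbx3 kept its call only without i2PS replicate 2; the removal of each of the other 5 arrays ended it (0.0598 to 0.72), and the mean of its probes was -0.13 (0.43). Without i2PS replicate 1 the list had 4 higher genes and without E14TG2A replicate 1 it had 9. No gene of this list was as low as Dppa3.

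**Figure D5:**
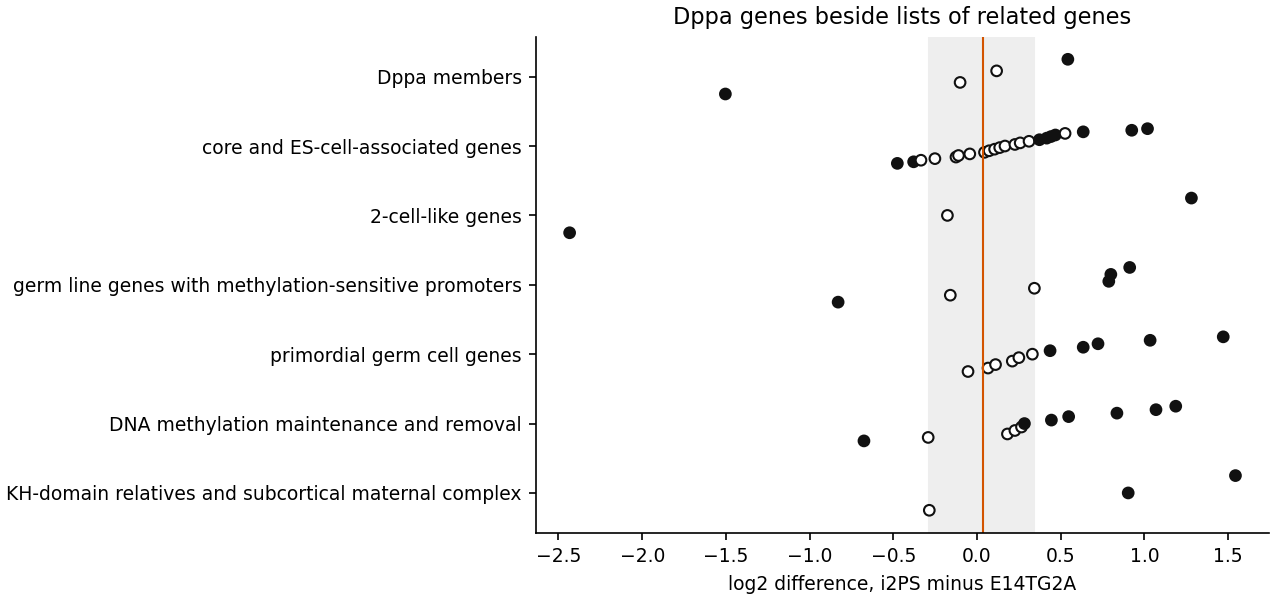
Log2 difference (i2PS minus E14TG2A) of the 4 Dppa genes and of each tested gene of 6 lists of related genes, with filled points where the limma adjusted p was under 0.05. The grey band spans the middle quartiles of all 8651 tested genes, from -0.29 to 0.34, and the orange line their median of 0.03; Dppa3 lies left of every point except Ddit4l.

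The genes nearest in pattern were found by the root mean square difference between log2 values, centred per gene, over the 6 arrays. For Dppa3 these were Ccdc84 (0.071), Mrc1 (0.075) and Tpm2 (0.078), which differed between the lines by -1.48, -1.41 and -1.50. For Dppa2 they were Thap3 (0.046), Msantd3 (0.069) and Il6st (0.071), the last a subunit of the LIF receptor complex, with differences of 0.54, 0.52 and 0.41. Thap3 turned to -0.14 without E14TG2A replicate 1. It did not pass without i2PS replicate 1 (limma adjusted p = 0.48) or i2PS replicate 2 (0.0537). Il6st did not pass without either of these i2PS arrays (0.0885 and 0.0998). With all 6 arrays and a detection p under 0.05, another, brighter probe stood for Thap3, at 0.02 (limma adjusted p = 0.94). Whether that probe also gave the Thap3 values without an array was not tested. For Dppa4 they were Dhx32 (0.016), Rrm2b (0.033) and Nsrp1 (0.034), and for Dppa5a Sephs1 (0.026), Tmem79 (0.029) and Gata2 (0.031), none of which passed the test between the lines.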

How the data were processed

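The authors deposited linear probe intensity values of 6 arrays, which per the submitters' processing notes came from GenomeStudio, with no version or setting given. Beside each intensity they deposited a detection p-value in steps of 1 in 936. A second deposited table holds the authors' processed intensity values, on a linear scale and in the same rank order as their own arrays, with medians of 96.7 on each, and served as an alternative. Background was taken from the detection p of each probe by the neqc approach (limma 3.58.1, R 4.3.3; offset of 16), followed by quantile normalization and log2. Probes were named through GEO's platform annotation, with symbols brought up to date through RefSeq's genes on GRCm38.p6 (34885 probes with 1 symbol, 18 with several, 10378 unlisted), which also gave the order of neighbouring genes. The labels and files used here name no build for the array's probes, so no coordinates are given. Kept probes had a detection p below 0.01 throughout the 3 arrays of i2PS, of E14TG2A or of both, and the brightest kept probe stood for a gene, which gave 8651 genes. Differences between the lines were fitted by limma (lmFit, eBayes) over all genes (over 12841 kept probes for single probes), with Benjamini-Hochberg adjustment at 0.05. Log2 differences are i2PS minus E14TG2A. A gene undetected on every array of 1 line has only a lower bound of its fold. For this bound, each dim array was given its own value or the lowest detected one on it, whichever was higher, and the mean of the bright line was set against their mean.

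The members and lists were chosen with earlier results of these data known. The genes named are the members, up to 2 of the largest rises and falls per list, up to 2 neighbours per locus, 3 genes nearest in pattern per member, and Pou5f1, Sox2 and Nanog. Others are marked. Alternatives changed the background correction, scaling, filter, choice of probe, moderation, array weights, replicate block and set of arrays, and the width of 20 neighbours was added after seeing the data. The number of arrays limits the precision.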

Additional observations from a re-analysis of the deposited data

How the results depend on the processing

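The 4 Dppa differences were recomputed under 18 alternatives each, and 68 of the 72 values kept their direction and their side of the threshold. Among these, the authors' processed values and the values without background correction gave nearly the same differences and are not independent. With equal medians, where 634 genes passed, Dppa2 (0.69, adjusted p = 0.28) did not pass and Dppa4 turned to 0.099. Of 43 other named genes that passed, without Dnmt3b and Setdb1, which were not recomputed, 15 passed there. Dppa4 was at 0.018 with the mean of its probes, and Dppa5a at -0.0040 with cyclic loess. Leaving out 1 array gave 0.47 to 0.66 for Dppa2, -1.58 to -1.37 for Dppa3, -0.22 to -0.0042 for Dppa4 and 0.062 to 0.18 for Dppa5a. Among single probes, Dppa2 probe ILMN_2607458 did not pass with equal medians (0.69, adjusted p over probes = 0.27) or without i2PS replicate 2 (0.47, adjusted p = 0.0565). Dppa4 probe ILMN_2593476 turned with equal medians (0.099), and Dppa5a probe ILMN_3090545 (-0.0040) and Dppa5a probe ILMN_3018711 (-0.11) with cyclic loess, the latter with array weights (-0.034) as well. Leaving out 1 array gave -0.0082 to 0.12 for Dppa4 probe ILMN_3155408 and -0.036 to 0.12 for Dppa5a probe ILMN_3018711, both lowest without i2PS replicate 1. Dhx32 (0.067), Nsrp1 (0.094) and Rrm2b (0.022) turned with equal medians. The Thap3 log2 difference ranged from -0.14 without E14TG2A replicate 1 to 0.65 without i2PS replicate 3. With all arrays and a detection p under 0.05 the Thap3 difference was 0.02, where another probe stood for the gene. Whether that probe also gave the -0.14 was not tested. The labels do not state that replicate numbers pair the cultures. Same-numbered deviations from the line means correlated at 0.0089, -0.047 and 0.068, and those of unlike numbers at -0.077 to 0.063. With 3 arrays per line these values cannot decide whether cultures were paired. In a fit with a replicate block, Dppa2 stayed at 0.54 (adjusted p = 0.0168) and Dppa3 at -1.50 (1.8e-04), Dppa4 and Dppa5a again did not pass, and 3613 genes passed against 3781. A slide block was planned but not run, since the sources used here name no slides. The folds of Dppa2 and Dppa3 moved with the background correction.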
